A study of Mus musculus with 6 samples.

Results

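Hepatic stellate cells (HSCs) were drawn from 6 droplet single-cell libraries of mouse liver non-parenchymal cells, the cells of the liver other than hepatocytes. A cell was taken as an HSC when 5 genes known from stellate cells, Dcn, Lrat, Reln, Colec11 and Rgs5, held at least 4 unique molecular identifiers (UMIs, each standing for 1 captured RNA molecule), with at least 1 of these from Lrat or Reln. The gate further allowed at most 1 UMI of Dpt and Clec3b, which mark portal fibroblasts, and at most 2 UMIs of Kdr and Ptprb, which mark endothelial cells. It held 140 of the 27544 cells that had under 5000 genes and under 5% mitochondrial UMIs.

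All libraries came from male C57BL/6J mice, aged 8 weeks at the start, that were fed a high-fat diet for 24 weeks as a model of nonalcoholic steatohepatitis (NASH). In the last 8 weeks of the diet the mice received ginkgetin, a biflavone from Ginkgo leaves, at 10 mg/kg per day by the intragastric route (3 libraries) or the DMSO vehicle (3 libraries). Mice on a chow diet are not among these libraries, so each comparison below is between 2 groups on the same diet. The libraries held 13128697 to 61796882 UMIs as deposited, and the labels do not say whether each came from a separate animal, so the p-values measure the spread between libraries, which may be partly technical. Replicates 1 and 2 of both groups shared 23 to 85 cell barcodes pair by pair, the replicate 3 libraries shared 10, and no pair across these sets shared more than 1. No shared barcode lay in the gate of both libraries.

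HSCs lie in the space between hepatocytes and the sinusoidal endothelium, where they store vitamin A as retinyl esters in lipid droplets. On liver injury they lose this store, gain contractile fibres built with alpha smooth muscle actin (the product of Acta2) and secrete fibrillar collagen, and are the main collagen-producing cell of liver fibrosis. In the healthy liver they also differ by place, with cells near the portal vein and cells near the central vein carrying different genes.

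The gate was checked against the markers of 9 other cell classes. These were macrophages, endothelial, T, B and plasma, NK and dendritic cells, neutrophils, hepatocytes and cholangiocytes. In 32 of the 140 cells the markers of another class held as many UMIs as the 5 gate genes or more. Macrophage markers led in 14 of them, B and plasma cell markers in 12 and cholangiocyte markers in 6. The B and plasma type cells were large, with a median of 30947 UMIs, and 91.7% of them had a Reln UMI while 25% had a Dcn UMI. The cholangiocyte type cells all had Rgs5, and 0% had Dcn. These 32 cells held 32.7%, 32.4% and 81.9% of the gate's UMIs in vehicle replicates 1, 2 and 3, and 22.6%, 7.44% and 52.4% in the ginkgetin replicates. The other 108 cells are called stellate-led cells here. By the markers that chose them, 95 (88%) had all 5, with a median of 158.5 marker UMIs (range 7 to 512). Results are given for the 108 cells unless the gate is named. The plot of cells in the gate shows how they were spread over the libraries.

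**Figure D1:**
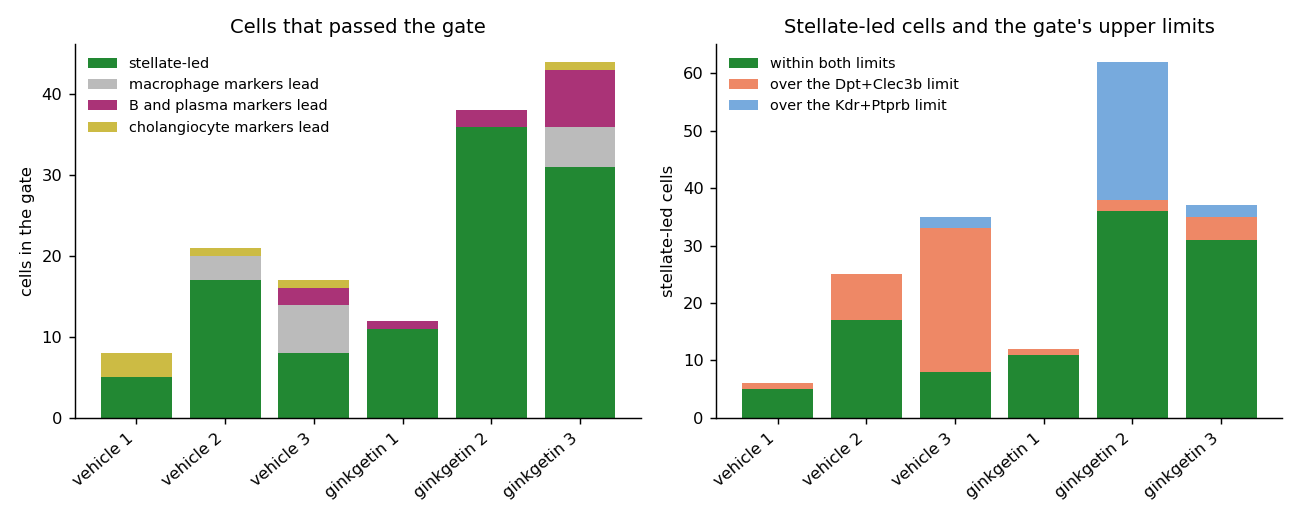
Numbers of cells by library (bars, linear axis). Left, cells that passed the gate, coloured by whether stellate markers or the markers of another class led. Right, stellate-led cells within both upper limits of the gate and those set aside only by the Dpt and Clec3b limit or the Kdr and Ptprb limit. Vehicle replicate 3 had 8 stellate-led cells within the limits and 25 over the Dpt and Clec3b limit, and ginkgetin replicate 2 had 24 over the Kdr and Ptprb limit.

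The values of the genes that chose the cells are a description only. In the stellate-led cells Dcn, which codes for the small matrix proteoglycan decorin, reached 22333, 21547 and 23557 counts per 1000000 UMIs (CPM) in vehicle replicates 1, 2 and 3 and 25460, 19721 and 23043 CPM in ginkgetin replicates 1, 2 and 3. Lrat, the enzyme that makes retinyl esters, reached 1351, 1262 and 2634 CPM in the vehicle libraries and 1184, 2209 and 2541 CPM in the ginkgetin libraries, in the same order of replicates, which is used throughout. Reln, a secreted glycoprotein, stood at 842, 955 and 1517 CPM against 2179, 2009 and 3049 CPM. Its groups did not overlap, whereas those of Dcn and Lrat did. Colec11, a secreted collectin, stood at 3491, 4443 and 6953 CPM against 3103, 3210 and 3429 CPM, again without overlap and in the other direction. Rgs5, a regulator of G protein signalling, ranged from 1719 to 3519 CPM in the vehicle group and from 1772 to 2776 CPM in the ginkgetin group.

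Genes of HSCs that the gate did not use were also high in the stellate-led cells. Ecm1, a matrix glycoprotein, held 7162 CPM over all stellate-led cells and 40 CPM over all cells outside the gate. Angptl6, an angiopoietin-like secreted protein, held 1643 against 5.89 CPM, and Pth1r, the parathyroid hormone receptor, 1109 against 3.18 CPM. Hand2 and Lhx2, transcription factors of HSCs, held 507 against 2.25 CPM and 347 against 1.22 CPM. Hgf, the hepatocyte growth factor, held 648 against 18.1 CPM. Of the 24 genes listed for stellate identity, 22 were among the 16150 genes used here. All 22 had a UMI in these cells, as did 12087 of the 16150. Portal fibroblast-like cells, chosen by their own markers, had 929 CPM of Ecm1 and 114 CPM of Angptl6. The levels of other classes' markers in the stellate-led cells are a description, since those of the 9 compared classes were used to set cells aside. The mesothelial, erythroid, cycling and portal fibroblast lists were not used so, though the gate caps Dpt and Clec3b of the last. The 11 macrophage markers summed to 232 to 460 CPM in the vehicle libraries and 54.7 to 200 CPM in the ginkgetin libraries, with Adgre1 at 0 in 5 of the 6. The 10 endothelial markers summed to 509 to 716 and 758 to 1171 CPM, and the 7 cholangiocyte markers to at most 119 CPM, with Epcam and Krt7 at 0 in each library. The 8 hepatocyte markers summed to 87.7, 568 and 759 CPM against 71.1, 356 and 43 CPM, and the 6 B and plasma markers to at most 512 CPM. The lists for T, NK, dendritic, neutrophil, mesothelial and erythroid cells each summed to at most 163 CPM, the cycling genes to at most 368 CPM and the 8 portal fibroblast markers to 105 to 734 CPM, and of all these lists only Ehd3 (endothelial) and Gsn (portal fibroblast) were high enough to be tested.

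The upper limits of the gate set aside further cells that carried the stellate markers. The Dpt and Clec3b limit alone excluded 41 cells, with 1, 8 and 25 in the vehicle libraries and 1, 2 and 4 in the ginkgetin libraries. None was led by 1 of the 9 classes, among which portal fibroblasts were not compared. Over all libraries these cells held 3183 CPM of Gsn, of the portal fibroblast list, against 426 CPM in the stellate-led cells. These cells had less Lrat (593 CPM in the vehicle group, 655 CPM in the ginkgetin group) than the stellate-led cells (1588 and 2305 CPM). They also had more of the fibrillar collagen chains in both groups, with Col1a1 at 3352 against 812 CPM and Col3a1 at 4714 against 2465 CPM in the vehicle group, and 823 against 219 CPM and 2100 against 1111 CPM in the ginkgetin group. The Kdr and Ptprb limit alone excluded 28 cells not led by another class, 24 of them in ginkgetin replicate 2. At the lower edge, 10 cells had exactly 4 marker UMIs and 14 had 3, and in each of these 24 cells another class led. Taken without both upper limits, the stellate-led cells numbered 179, with 6, 25 and 35 in the vehicle libraries and 12, 64 and 37 in the ginkgetin libraries.

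The first comparison asked whether the share of HSCs among the cells differed with treatment. Gate cells made up 0.133%, 0.629% and 0.411% of the kept cells in the vehicle libraries and 0.344%, 0.549% and 1.21% in the ginkgetin libraries. The exact binomial 95% intervals ran from 0.0574% to 0.262% for the lowest library and from 0.879% to 1.62% for the highest, and cover counting error only. The mean was 0.391% ± 0.249 (SD, n = 3) with vehicle and 0.7% ± 0.451 (SD, n = 3) with ginkgetin, and the groups overlapped (two-sided exact permutation test, p 0.5, where 3 libraries against 3 cannot go below 0.1). For the stellate-led cells the shares were 0.0831%, 0.51% and 0.193% against 0.315%, 0.52% and 0.851% (exact permutation p 0.2). Without the upper limits they were 0.0997%, 0.749% and 0.846% against 0.344%, 0.925% and 1.02% (exact permutation p 0.5). In these 2 sets each ginkgetin library lay above the vehicle library of the same number (paired sign permutation p 0.25 in each, the smallest for 3 pairs). In the gate cells replicate 2 went the other way (paired sign permutation p 0.5). Without ginkgetin replicate 3 the difference of the means was 0.0553 percentage points, against 0.309 with all libraries.

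Acta2, a usual mark of HSC activation, was found in few cells. Among the gate cells 2 of 8, 2 of 21 and 4 of 17 vehicle cells and 0 of 12, 2 of 38 and 3 of 44 ginkgetin cells had an Acta2 UMI, which is 25%, 9.52% and 23.5% against 0%, 5.26% and 6.82%. Every vehicle library was higher than every ginkgetin library, with an exact permutation p of 0.1, the smallest this design allows. The 0 of ginkgetin replicate 1 allows a share of up to 25%. The median depth was 8130.5 UMIs per gate cell with vehicle and 4915 with ginkgetin, so the share was also computed for the case of thinning each cell to 1000 UMIs. The expected share was then 14.8%, 0.622% and 8.26% against 0%, 5.13% and 4.82%, and the groups overlapped (exact permutation p 0.4). In the stellate-led cells the shares were 40%, 11.8% and 25% against 0%, 5.56% and 9.68% before thinning (exact permutation p 0.1), where the 0 of ginkgetin replicate 1 allows up to 27.3%. Thinned, they were 23.7%, 0.769% and 17% against 0%, 5.41% and 6.84% (exact permutation p 0.3). T cells, which do not express Acta2, had 0.00417% to 0.107% after the same thinning, at median depths of 3422.5 and 3588 UMIs, so the shares above 0 in HSCs lay over this background.

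Acta2 was concentrated in a handful of cells. Over the 108 stellate-led cells 11 had an Acta2 UMI, and 5 of them held 182 of the 200 UMIs (91%). The 7 cells with 5 or more Acta2 UMIs comprised 2 of vehicle replicate 1, 1 of vehicle replicate 3, 2 of ginkgetin replicate 2 and 2 of ginkgetin replicate 3. The cell with the most, 55 UMIs, was of ginkgetin replicate 3. As sums over cells, the 11 cells had 2230 CPM of Tagln, the actin-binding protein transgelin, and 1262 CPM of Col1a1, against 220 and 233 CPM in the 97 cells with no Acta2 UMI. They had less Ecm1 (1996 against 8284 CPM), Hgf (156 against 755 CPM) and Rspo3 (121 against 997 CPM), and Dcn stood at 11278 against 24607 CPM. Cells that share a library are not replicates and the 11 cells were picked by a measured gene, so these sums are a description. Their median depth was 9807 UMIs, against 4836 in the other cells.

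Col1a1, the alpha 1 chain of type I collagen, was found in more cells. After thinning to 1000 UMIs, 24.7%, 25.3% and 12.4% of vehicle gate cells and 11.7%, 10.7% and 13.2% of ginkgetin gate cells had a Col1a1 UMI (exact permutation p 0.2). In the stellate-led cells the shares were 39.5%, 30.3% and 28.3% against 12.7%, 11.3% and 18.8%, and the groups did not overlap (difference of the means -18.4 percentage points, exact permutation p 0.1, the smallest the design allows). T cells had 0.0256% to 0.17%. Before thinning the stellate-led cells had 60%, 64.7% and 75% against 27.3%, 27.8% and 71%, which overlapped (exact permutation p 0.3), and the gate cells 37.5%, 57.1% and 35.3% against 25%, 26.3% and 50% (exact permutation p 0.5). The 5 cells richest in Col1a1 held 54.1% of its 270 UMIs, while the 5 richest in Ecm1 held 16.7% of its 4643. The plot of UMIs per cell shows both patterns.

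**Figure D2:**
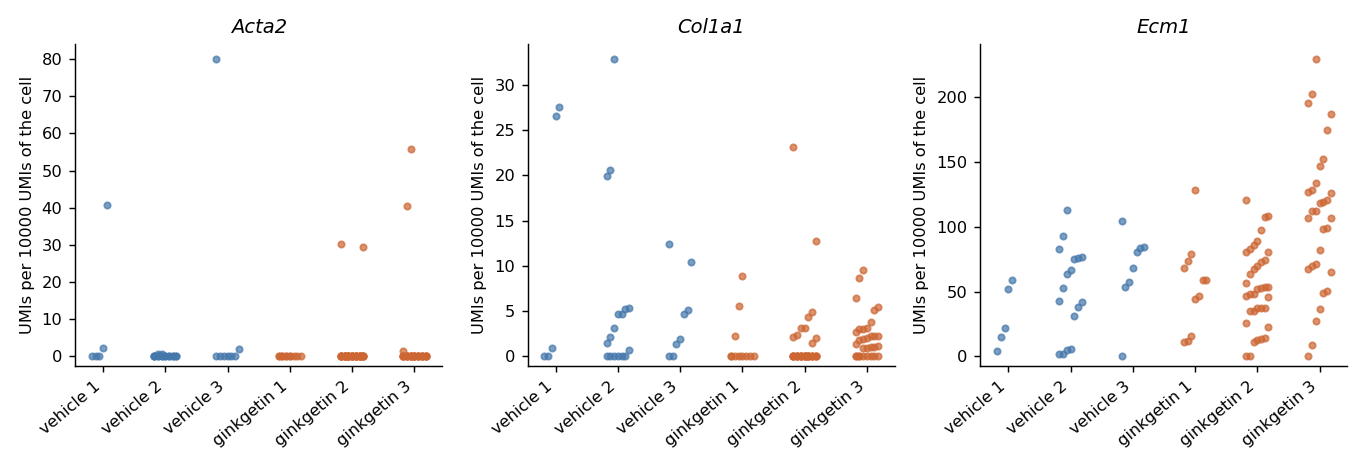
UMIs of Acta2, Col1a1 and Ecm1 per 10000 UMIs of the cell (y axes, linear) in each of the 108 stellate-led cells, by library, vehicle in blue and ginkgetin in orange. Acta2 was present in 11 cells of 5 libraries, Col1a1 in 55 cells and Ecm1 in 104 cells.

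Gene expression was then compared on counts summed per library, with edgeR's quasi-likelihood test and Benjamini-Hochberg adjustment, and a gene was called at an adjusted p under 0.05 and a fold over 2. In the gate cells, with vehicle replicate 1 left out of the fit because it held under 10 cells, 1 of 2966 genes was called (0.0337%), and 439 had an unadjusted p under 0.05. This gene was Trem2, a lipid receptor of NASH-associated macrophages, with a log2 difference of -6.45 ± 0.69 (SE, adjusted p = 0.038). Trem2 did not pass with limma-voom (adjusted p = 0.16), without ginkgetin replicate 1 (adjusted p = 0.28) or without ginkgetin replicate 2 (adjusted p = 0.12). Its gate levels were 11.8, 305 and 503 CPM against 0, 0 and 6.78 CPM. Only 1 of the 108 stellate-led cells had a Trem2 UMI, and the macrophage markers of the gate summed to 390, 6383 and 16397 CPM against 55, 199 and 3153 CPM. The next genes in this direction, which did not pass without the block, were Fabp5, Clec4b1, Bcl2a1b, Rgs10 and H2-Eb1 (adjusted p = 0.08 each). With the replicate number as a block, described below, these 5 passed in the gate cells (adjusted p = 2.4e-04 for H2-Eb1 to 0.0018 for Rgs10). Clec4b1 had no UMI in the stellate-led cells, Bcl2a1b had one in 2 of them and Fabp5 in 9.

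In the stellate-led cells of all 6 libraries, with group as the only term, 0 of 1308 genes were called (0%), 153 had an unadjusted p under 0.05, DESeq2 called 9 and limma-voom called 0. The replicate numbers were taken to pair the libraries, which the values bear out only in part. In deviations from their group means, same-numbered vehicle and ginkgetin libraries correlated at 0.2, 0.31 and 0.55. Vehicle replicate 2 correlated at 0.3 with ginkgetin replicate 1, so replicates 1 and 2 were not told apart by number. Pairs of replicate 3 with replicates 1 or 2 all correlated negatively. With the replicate number as a block, an alternative chosen after seeing the data, 20 of the 1308 genes were higher with ginkgetin (1.53%) and 25 were lower (1.91%). This fit leaves 2 residual degrees of freedom. Of the 45 genes, 18 had all ginkgetin libraries above all vehicle libraries, 19 had them all below and 8 overlapped. Without the block their adjusted p ranged from 0.13 to 0.45. With the 32 cells of other classes kept, vehicle replicate 1 left out and the same block, 44 of the 45 had the same direction and 19 were called, on cells that the fits share. These 19 were Rspo3, Spon2, Fosb, Cyr61, Abcc9, Fgfr2, Ntn1, Nfia, Epas1 and 1700025G04Rik, which were higher, and Irf7, Ifit3, Ccdc80, Clca3a1, Cd74, Pf4, Tmsb4x, Tpi1 and Hist1h2bc, which were lower, so the calls of the other genes rest on leaving out those cells or on the added library. In the following, "rose" and "fell" are used of genes that passed with the block in the stellate-led cells, log2 differences are ginkgetin minus vehicle from that fit with their SE, and adjusted p-values are those of edgeR's quasi-likelihood test over all 1308 genes. Genes among the 45 that lie outside the naming rule given in the processing notes were chosen after their values were seen. Among all 1308 genes, 111 (8.49%) had every ginkgetin library above every vehicle library and 114 (8.72%) had every one below.

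Fibrillar collagen genes fell in part. Of the 10 collagen genes tested, 2 fell with the block and 0 rose, and the median log2 difference of the list without the block was -0.51, against -0.01 over all 1308 genes. Among all 1308 genes 1.91% fell with the block. With the 32 cells of other classes kept, and vehicle replicate 1 not in the fit, the median of the collagen list was 0.30, and with the block Col1a1 had a log2 difference of -0.52 (adjusted p = 0.58) and Col3a1 of -0.07 (adjusted p = 0.93), so neither call held. Col1a1 stood at 1596, 631 and 295 CPM in the vehicle libraries and 166, 126 and 278 CPM in the ginkgetin libraries. The groups did not overlap, but the replicate 3 libraries lay close together while those of replicates 1 and 2 lay far apart. The log2 difference was -1.84 ± 0.45 (adjusted p = 0.032 with the block and 0.21 without it). Col3a1, the type III collagen chain, stood at 4842, 1568 and 1707 CPM against 995, 630 and 1384 CPM and fell by 1.31 ± 0.33 on the log2 scale (adjusted p = 0.04). In vehicle replicate 1, which held 5 stellate-led cells, 1 cell had 64 Col1a1 and 135 Col3a1 UMIs and another had 26 and 98. The other cells of that library had at most 1 Col1a1 and 27 Col3a1 UMIs. Col1a2, the partner chain of Col1a1, had 2035, 667 and 927 CPM against 332, 423 and 669 CPM, and the groups just overlapped (log2 difference -1.16 ± 0.35, adjusted p = 0.074). Serpinh1, the collagen chaperone of the endoplasmic reticulum, fell from 2632, 955 and 1011 CPM to 639, 445 and 571 CPM (log2 difference -1.33 ± 0.30, adjusted p = 0.018).

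The other collagens did not pass. Col6a2, a chain of the beaded type VI collagen, stood at 175, 144 and 105 CPM against 118, 126 and 195 CPM, with a log2 difference of 0.03 ± 0.41. Col4a1 and Col4a2, chains of the basement membrane collagen, had log2 differences of -0.60 ± 0.32 and -0.89 ± 0.43 and did not pass. Col14a1, which HSCs share with fibroblasts, had 1526 to 5183 CPM with vehicle and 1326 to 3323 CPM with ginkgetin.

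Of the 14 matrix and remodelling genes tested, 0 passed in either direction, 3 had every ginkgetin library higher and 1, Sparc, had every one lower. Over all 1308 genes these last 2 shares were 8.49% and 8.72%. Sparc, a collagen-binding matrix protein, had 10614, 4650 and 3940 CPM against 2274, 2306 and 3081 CPM, so that every ginkgetin library was lower (log2 difference -1.21 ± 0.35, adjusted p = 0.068). In vehicle replicate 1 the cells with 64 and 26 Col1a1 UMIs held 370 and 150 Sparc UMIs, against at most 34 elsewhere. Bgn, the proteoglycan biglycan, ranged over 3208 to 5141 CPM and 2439 to 4797 CPM. Lamc1, a laminin chain, had 126 to 358 CPM against 259 to 481 CPM, and Sparcl1, a relative of Sparc, had 140, 225 and 232 CPM against 237, 534 and 567 CPM (log2 difference 1.11 ± 0.34, adjusted p = 0.074). Vtn, the plasma protein vitronectin, had 70.2, 144 and 527 CPM against 23.7, 59.3 and 62.6 CPM and was too low to be tested.

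Timp1, an inhibitor of matrix metalloproteinases, did not pass the filter on low counts in the stellate-led cells. Its levels there were 807, 72.1 and 337 CPM with vehicle and 0, 7.41 and 11.7 CPM with ginkgetin, from 74 UMIs in 16 cells, and 5 cells held 79.7% of them. Without the upper limits of the gate the levels were 688, 515 and 449 CPM against 0, 3.6 and 9.18 CPM. The log2 difference was then -6.27 ± 0.51 with the block (adjusted p = 7.9e-08) and -6.39 ± 0.55 without it (adjusted p = 4.1e-05). Cells outside the gate had 5.96 to 8.73 CPM with vehicle and 0.856 to 2.09 CPM with ginkgetin.

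The same wider set of 179 cells, chosen after seeing the data, gave 6 called genes of 3592 without the block (0.167%), among them Col1a1 (1362, 1170 and 3017 CPM against 326, 202 and 327 CPM, log2 difference -2.74 ± 0.45, adjusted p = 0.032). The others were Timp1, Ccdc80 and Fhl2, which were lower, and Ier2 and Hhip, which were higher. With the block 50 genes were higher (1.39%) and 65 lower (1.81%), and 32 of the 45 genes of the narrower set were among them. By list, with the block, 5 of 12 collagens, 2 of 12 contractile genes, 2 of 24 matrix genes, 2 of 11 chemokine and adhesion genes, 1 of 18 interferon genes, 1 of 10 IL6-STAT3 genes, 1 of 9 complement genes and 1 of 5 portal-side genes were lower, and none of these lists had a gene higher. In the other direction 9 of 18 immediate-early and heat shock genes, 4 of 21 identity genes, 2 of 5 central-side genes and 1 of 10 growth factor genes were higher, and none of these lists had a gene lower. Of the markers of other cells, both macrophage markers tested there and 1 of 3 hepatocyte markers were lower. Between the groups this set differs in makeup, since 34 of its 66 vehicle cells and 7 of its 113 ginkgetin cells lay over the Dpt and Clec3b limit alone.

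Contractile genes gave 2 falls and no rise among 12 tested, where 1.91% of all 1308 genes fell. Tagln stood at 2088, 279 and 1327 CPM against 355, 297 and 418 CPM. Vehicle replicate 2 lay below all 3 ginkgetin libraries, and the log2 difference was -1.41 ± 0.38 (adjusted p = 0.049 with the block and 0.3 without it). In vehicle replicate 1, 1 cell held 80 Tagln UMIs, against at most 24 in its other cells. Vim, the intermediate filament vimentin, stood at 3754, 1072 and 1475 CPM against 592, 526 and 532 CPM, with no overlap (log2 difference -1.71 ± 0.31, adjusted p = 0.0062). Outside the gate Vim stood at 767 to 931 CPM in the vehicle libraries and 434 to 512 CPM in the ginkgetin libraries. Acta2 itself, summed per library, had 789, 18 and 569 CPM against 0, 133 and 422 CPM, a log2 difference of -0.73 ± 0.67 (adjusted p = 0.58). In the gate fit, where vehicle replicate 1 was left out, the log2 difference of Acta2 was 0.69 (adjusted p = 0.8), 1.19 with the block (adjusted p = 0.13) and 4.02 without cells with 2 or more immune UMIs (adjusted p = 0.015, with 1 vehicle library in the fit), so its direction depended on the cells and libraries taken. Tagln had -0.16 in the gate with the block (adjusted p = 0.82). Des, the filament desmin, had 246, 171 and 316 CPM against 166, 141 and 324 CPM, and Myl9, a myosin light chain, 140, 63.1 and 105 CPM against 23.7, 133 and 231 CPM. The 4 smooth muscle markers among the genes used, with Cnn1 and Actg2 at 0, summed to 52.6, 18 and 126 CPM against 0, 44.5 and 164 CPM.

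Ccdc80, a secreted protein that binds matrix, also fell. It stood at 1333, 595 and 1917 CPM against 142, 230 and 344 CPM (log2 difference -2.28 ± 0.34, adjusted p = 0.0028 with the block and 0.14 without it). The lowest vehicle library lay above the highest ginkgetin library. Endothelial cells of the same libraries had 99.6, 116 and 222 CPM against 142, 109 and 259 CPM, and outside the gate Ccdc80 had 13.9 to 31.4 CPM with vehicle and 40.7 to 110 CPM with ginkgetin.

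**Figure D3:**
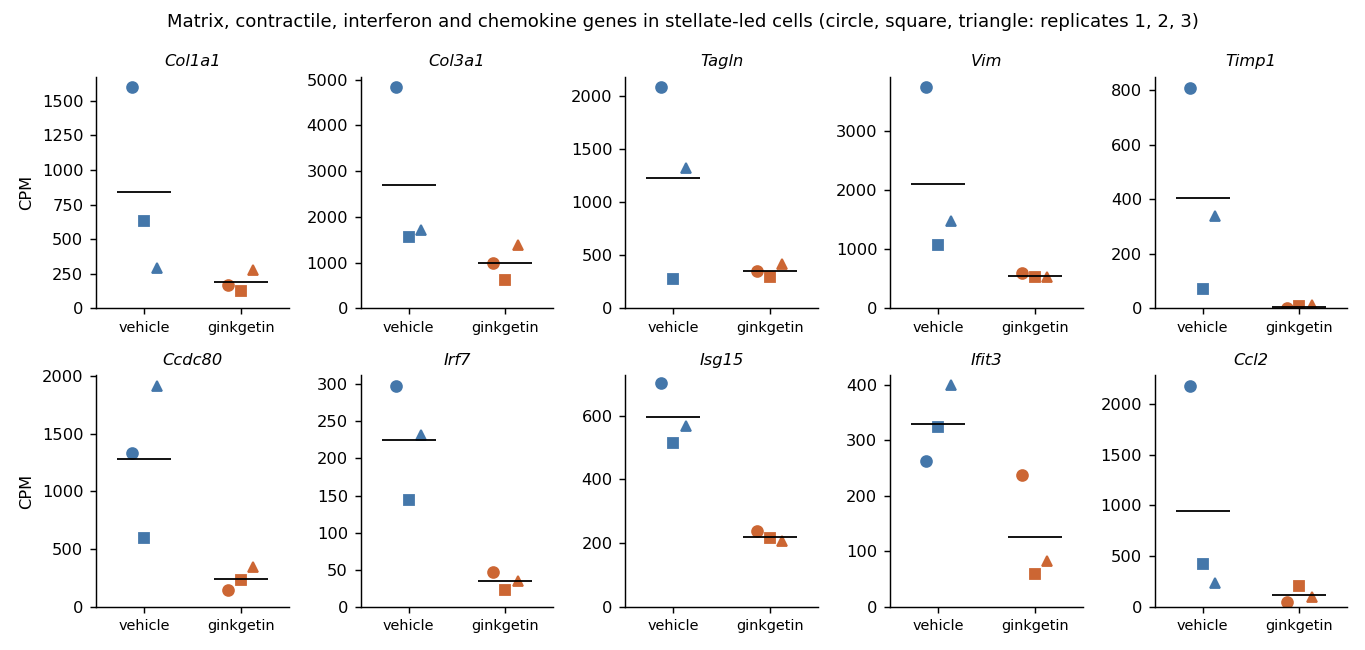
CPM (y axes, linear from 0) of 10 genes in the stellate-led cells of each library, vehicle in blue and ginkgetin in orange. Each point is 1 library (circle, square and triangle for replicates 1, 2 and 3) and each horizontal line is the mean of 3 libraries. The groups did not overlap for 9 of the genes, and for Tagln vehicle replicate 2 (279 CPM) lay below the 3 ginkgetin libraries.

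The interferon genes are shown with their promoters, because the study asks about the interferon pathway in HSCs. Interferon acts through factors that bind the interferon-stimulated response element, which holds the letters GAAANNGAAA. The 250 bases before the start of each gene were searched for these letters on both strands, overlapping matches included, in the RefSeq promoters of GRCm38.p6. The letters were found in 978 of 32851 promoters (2.98%) and in 9 of the 19 genes of the interferon list that matched a promoter by symbol (47.4%). A match is a description of the sequence and not a measured site. The list was chosen as interferon genes, so its share is no test of these data. The share over all counts promoters, and that of the list counts genes. The 2 promoters below belong to genes of this list that fell, with the matches in capitals, and the promoter of Irf7, which also fell, held no match. Among the other tested genes of the list B2m, Cxcl10 and Bst2 held a match and did not pass the test.
Isg15, chr4:156200855-156200916, minus strand, bases -98 to -37 from the start, 3 overlapping matches: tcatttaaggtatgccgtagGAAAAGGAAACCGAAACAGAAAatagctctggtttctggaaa
Ifit3, chr19:34583353-34583436, plus strand, bases -176 to -93 from the start, 2 matches read on the other strand: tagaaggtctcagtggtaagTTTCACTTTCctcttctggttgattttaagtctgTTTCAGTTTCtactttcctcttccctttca

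Of the 11 interferon genes tested, 3 fell and 0 rose, with a median log2 difference of -0.56 without the block. Over all 1308 genes 1.91% fell and 1.53% rose. Isg15, a ubiquitin-like protein induced by interferon, stood at 702, 514 and 569 CPM against 237, 215 and 207 CPM (log2 difference -1.44 ± 0.31, adjusted p = 0.017). Irf7, a transcription factor that amplifies type I interferon, stood at 298, 144 and 232 CPM against 47.4, 22.2 and 35.2 CPM (log2 difference -2.68 ± 0.49, adjusted p = 0.0062). Ifit3, an antiviral protein, stood at 263, 324 and 400 CPM against 237, 59.3 and 82.1 CPM (log2 difference -1.79 ± 0.42, adjusted p = 0.025). In each of these genes every ginkgetin library was below every vehicle library. With the 32 cells kept the median of the list was -0.27, and without the upper limits of the gate only Irf7 of 18 interferon genes tested was lower with the block, with Isg15 at -1.04 ± 0.31 (adjusted p = 0.069) and Ifit3 at -1.01 ± 0.39 (adjusted p = 0.16). The antigen-presenting genes B2m, H2-K1 and H2-D1 had log2 differences of -0.44 ± 0.34, -0.21 ± 0.28 and -0.50 ± 0.31 and did not pass. Bst2, the antiviral membrane protein tetherin, had 632, 694 and 569 CPM against 308, 386 and 219 CPM (log2 difference -1.11 ± 0.31, adjusted p = 0.052).

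Outside the gate these genes also had every ginkgetin library below every vehicle library. Irf7 there had 161, 186 and 152 CPM with vehicle and 41.6, 35 and 76.1 CPM with ginkgetin, and Ifit3 had 32.3 to 44.9 CPM and 11.5 to 23.6 CPM. Isg15 had 100 to 154 CPM and 67 to 83.6 CPM. The difference between HSCs and endothelial cells in the effect of ginkgetin did not pass for Irf7 (log2 -1.67 ± 0.57, adjusted p = 0.25), Isg15 (adjusted p = 0.99) or Ifit3 (adjusted p = 0.82). Whether RNA from other cells has a part in these levels was not tested.

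Some of the genes that fell are typical of immune cells. Cd74, the invariant chain of MHC class II, stood at 193, 1874 and 126 CPM against 71.1, 215 and 19.5 CPM (log2 difference -2.81 ± 0.43, adjusted p = 0.0028), and 208 of its UMIs came from 9 cells of vehicle replicate 2. Pf4, a chemokine of platelets and macrophages, stood at 281, 180 and 190 CPM against 47.4, 74.1 and 43 CPM (log2 difference -1.86 ± 0.45, adjusted p = 0.03). Outside the gate Cd74 had 5931 to 12313 CPM with vehicle and 3311 to 3846 CPM with ginkgetin, and Pf4 149 to 215 and 20.6 to 31.2 CPM. The macrophage markers outside the gate summed to 16255, 16469 and 21285 CPM against 2084, 1662 and 3948 CPM. They moved in the same direction as these genes, and their part in the result was not tested.

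Chemokines and adhesion genes gave 1 fall among 7 tested and no rise, where 1.91% of all 1308 genes fell. Ccl2, which attracts monocytes, had 2175, 424 and 232 CPM against 47.4, 208 and 93.8 CPM (log2 difference -2.17 ± 0.52, adjusted p = 0.03 with the block and 0.17 without it). Vehicle replicate 1 stood far above the rest, with 124 UMIs from 3 cells. Outside the gate Ccl2 had 48.7 to 61.3 CPM with vehicle and 8.38 to 18.4 CPM with ginkgetin. Cxcl16, a membrane-bound chemokine, had 117 to 333 and 94.7 to 133 CPM, and Cxcl2, which attracts neutrophils, had a UMI in 2 cells and was not tested. Cxcl12, a chemokine that retains stem and immune cells and is abundant in HSCs, had 2684, 2884 and 3245 CPM against 5305, 4374 and 5231 CPM. Its groups did not overlap, but the difference did not pass (log2 difference 0.72 ± 0.28, adjusted p = 0.17).

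Immediate-early genes code for transcription factors and regulators that cells switch on within minutes of a stimulus and during tissue dissociation. Of the 14 immediate-early and heat shock genes tested 9 rose and 0 fell, 10 had every ginkgetin library above every vehicle library, and the median log2 difference without the block was 1.77, against 0.35 in the gate fit. Among all 1308 genes 1.53% rose and 8.49% had every ginkgetin library above every vehicle library. Ier2 stood at 87.7, 108 and 105 CPM against 663, 519 and 297 CPM (log2 difference 2.20 ± 0.38, adjusted p = 0.0061 with the block and 0.13 without it). Fos, a subunit of the factor AP-1, stood at 17.5, 469 and 63.2 CPM against 663, 1357 and 837 CPM (log2 difference 2.53 ± 0.45, adjusted p = 0.0062). Its partner Junb stood at 158, 703 and 84.3 CPM against 1232, 1505 and 1274 CPM (log2 difference 2.19 ± 0.41, adjusted p = 0.0062). In both, vehicle replicate 2 was the highest of its group and still below the lowest ginkgetin library. Egr1, Btg2, Zfp36, Jun, Jund and Fosb rose by log2 2.31, 2.28, 2.21, 1.37, 1.60 and 2.55.

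The 4 heat shock genes of the same list and Dusp1 did not pass. Hspa1a, an inducible chaperone, had 228, 847 and 21.1 CPM against 426, 252 and 176 CPM, and Hspa8, its constitutive relative, 1105, 1703 and 716 CPM against 758, 474 and 672 CPM (log2 difference -0.90 ± 0.33, adjusted p = 0.14). Cyr61, a matricellular target of the YAP factor, rose from 140, 252 and 84.3 CPM to 332, 971 and 665 CPM (log2 difference 1.97 ± 0.37, adjusted p = 0.0064). Outside the gate Ier2 had 141, 205 and 286 CPM against 204, 245 and 294 CPM, Fos 359, 505 and 877 CPM against 591, 780 and 827 CPM, and Junb 347, 752 and 1418 CPM against 771, 797 and 1204 CPM. These groups overlapped. Egr1 outside the gate had 39.4, 86.5 and 144 CPM against 192, 320 and 312 CPM, without overlap. In the gate cells with the 32 cells of other classes kept, Fos had 414, 500 and 693 CPM against 770, 1270 and 918 CPM and its log2 difference was 0.58 ± 0.40 (adjusted p = 0.54, vehicle replicate 1 not in the fit). How the cells were handled in each library is not given in the sources used here, and the part of dissociation in these genes was not tested.

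Genes known from HSCs near the central vein rose in part. Of the central-side genes 3 were tested, 2 rose and each of the 3 had every ginkgetin library above every vehicle library (median log2 difference 1.68 without the block). The shares over all 1308 genes were 1.53% and 8.49%. Rspo3, an amplifier of Wnt signals that maintains the zonation of the liver, stood at 228, 333 and 337 CPM against 1232, 793 and 1251 CPM (log2 difference 1.75 ± 0.32, adjusted p = 0.0062 with the block and 0.14 without it). Spon2, a secreted matrix protein, stood at 52.6, 81.1 and 126 CPM against 474, 245 and 195 CPM (log2 difference 1.65 ± 0.44, adjusted p = 0.045). Adamtsl2, which binds fibrillin, had 35.1, 225 and 84.3 CPM against 355, 319 and 367 CPM (log2 difference 1.39 ± 0.43, adjusted p = 0.074). Rspo3 had 12.5, 13.6 and 6.72 CPM against 34.9, 35 and 23.1 CPM outside the gate.

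Of the portal-side genes 4 were tested and 2 fell, Tagln and Igfbp3 (median log2 difference -0.88 without the block, and 0.01 in the gate fit). Among all 1308 genes 1.91% fell. Igfbp3, a carrier of insulin-like growth factors, stood at 965, 1000 and 1770 CPM against 497, 608 and 700 CPM (log2 difference -1.05 ± 0.27, adjusted p = 0.043). In the gate with the block the log2 difference of Igfbp3 was -0.27 (adjusted p = 0.65). Every ginkgetin library was below every vehicle library. Ngfr, the low-affinity nerve growth factor receptor and the usual mark of portal-side HSCs, had 105, 225 and 716 CPM against 142, 341 and 426 CPM, with overlap (log2 difference -0.07 ± 0.36, adjusted p = 0.94). Itgb3, an integrin chain, had 27 to 232 CPM and 71.1 to 125 CPM and was too low to be tested. 

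Of the 21 identity genes of HSCs tested, 0 rose and 1 fell with the block, and 6 had every ginkgetin library higher and 2 every one lower. Over all 1308 genes 1.53% rose and 1.91% fell, 8.49% had every ginkgetin library higher and 8.72% every one lower. Hand2 stood at 175, 189 and 485 CPM against 592, 512 and 708 CPM (log2 difference 1.14 ± 0.33, adjusted p = 0.07). Lhx2 stood at 228, 153 and 232 CPM against 379, 400 and 446 CPM (log2 difference 1.01 ± 0.33, adjusted p = 0.099). Ecm1 had 2228, 4010 and 7038 CPM against 5684, 5738 and 10646 CPM, in which vehicle replicate 3 lay between the ginkgetin libraries (log2 difference 0.77 ± 0.31, adjusted p = 0.18). Pdgfrb, the receptor for platelet-derived growth factor, had 211, 207 and 548 CPM against 94.7, 423 and 622 CPM. In the gate cells with the block, where vehicle replicate 1 was left out, Hand2 (log2 difference 1.72, adjusted p = 0.011), Lhx2 (1.82, adjusted p = 0.01), Hgf (1.44, adjusted p = 0.039) and Pdgfrb (1.34, adjusted p = 0.032) passed as higher. In the stellate-led cells the gene that fell was Steap4, a metalloreductase, with 1421, 1739 and 3308 CPM against 592, 971 and 1665 CPM (log2 difference -1.04 ± 0.26, adjusted p = 0.036).

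**Figure D4:**
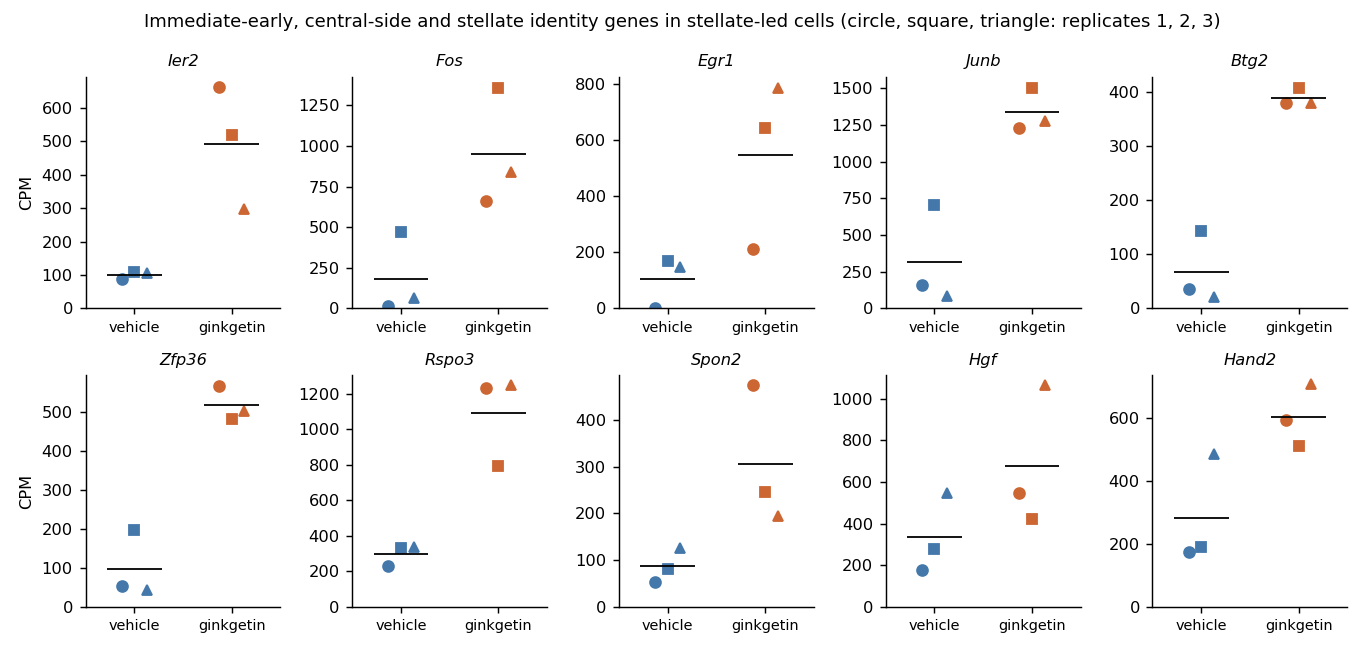
CPM (y axes, linear from 0) of 6 immediate-early genes, the central-side genes Rspo3 and Spon2, and Hgf and Hand2 in the stellate-led cells of each library, vehicle in blue and ginkgetin in orange. Each point is 1 library (circle, square and triangle for replicates 1, 2 and 3) and each horizontal line is the mean of 3 libraries. The groups did not overlap for 9 of the genes, and for Hgf vehicle replicate 3 (548 CPM) lay above ginkgetin replicates 1 and 2.

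Among growth factors and IGF-binding proteins 10 genes were tested, of which Rspo3 rose and Igfbp3 fell (1.53% and 1.91% of all 1308 genes did so). Hgf had 175, 279 and 548 CPM against 545, 423 and 1067 CPM (log2 difference 0.95 ± 0.32, adjusted p = 0.1). Gdf10, a ligand related to the bone morphogenetic proteins, had 298, 135 and 232 CPM against 403, 267 and 493 CPM (log2 difference 0.81 ± 0.33, adjusted p = 0.19), and Igfbp7 had 9882 to 12481 CPM and 5411 to 9260 CPM (log2 difference -0.64 ± 0.32, adjusted p = 0.28). For the TGF-beta and PDGF list 0 of 8 genes passed and 3 had every ginkgetin library higher (8.49% of all 1308 genes were so). Ltbp4, which holds latent TGF-beta in the matrix, was among the latter, with 246, 351 and 464 CPM against 568, 526 and 919 CPM (log2 difference 0.85 ± 0.31, adjusted p = 0.13). Tgfbr3, the co-receptor betaglycan, had 87.7, 117 and 232 CPM against 166, 178 and 391 CPM.

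The IL6-STAT3 pathway, in which IL6 signals through the receptor chain gp130 (Il6st), the kinase Jak1 and the factor Stat3, showed no called gene among 5 tested (Il6st, Jak1, Lifr, Il11ra1 and Cebpb). Without the upper limits of the gate 1 of 10 was lower with the block, Osmr, the receptor for oncostatin M (log2 difference -1.81 ± 0.46, adjusted p = 0.026). The median of the list was -0.49 in the stellate-led cells and 0.34 in the gate fit, and Il6st had 0.15 in the latter (adjusted p = 0.9). Il6st had 684, 460 and 1559 CPM against 379, 563 and 743 CPM (log2 difference -0.57 ± 0.31, adjusted p = 0.33). Il11ra1, the receptor chain for interleukin 11, had 298, 216 and 147 CPM against 403, 304 and 270 CPM (log2 difference 0.53 ± 0.32, adjusted p = 0.38). Stat3 had 105, 90.1 and 63.2 CPM against 94.7, 119 and 133 CPM and Socs3, its feedback inhibitor and target, 175, 99.1 and 42.1 CPM against 71.1, 119 and 129 CPM, and both were too low to be tested in these cells. In the gate fit, which lacked vehicle replicate 1, their log2 differences were 0.69 ± 0.44 (adjusted p = 0.5) and 0.54 ± 0.50 (adjusted p = 0.67). Il6 itself had a UMI in 1 library. The transcript levels say nothing of the phosphorylated protein.

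The retinoid genes, which serve the vitamin A store, gave 0 calls among 6 tested. Plin2, which coats lipid droplets, had 158, 342 and 400 CPM against 189, 267 and 227 CPM, and Lpl, lipoprotein lipase, 281, 135 and 169 CPM against 237, 156 and 289 CPM. Of the lipid and cholesterol list 3 genes were tested and 0 passed, and Apoe, the apolipoprotein, had 5702, 8363 and 12685 CPM against 10681, 8511 and 6916 CPM. Pparg had no UMI in any library. Of the complement list 0 of 7 passed. Its member Serping1, the C1 inhibitor, had 1719, 1604 and 2360 CPM against 995, 993 and 1138 CPM (log2 difference -0.88 ± 0.26, adjusted p = 0.069), and Colec10, a collectin, 895, 676 and 1117 CPM against 924, 964 and 1142 CPM.

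**Figure D5:**
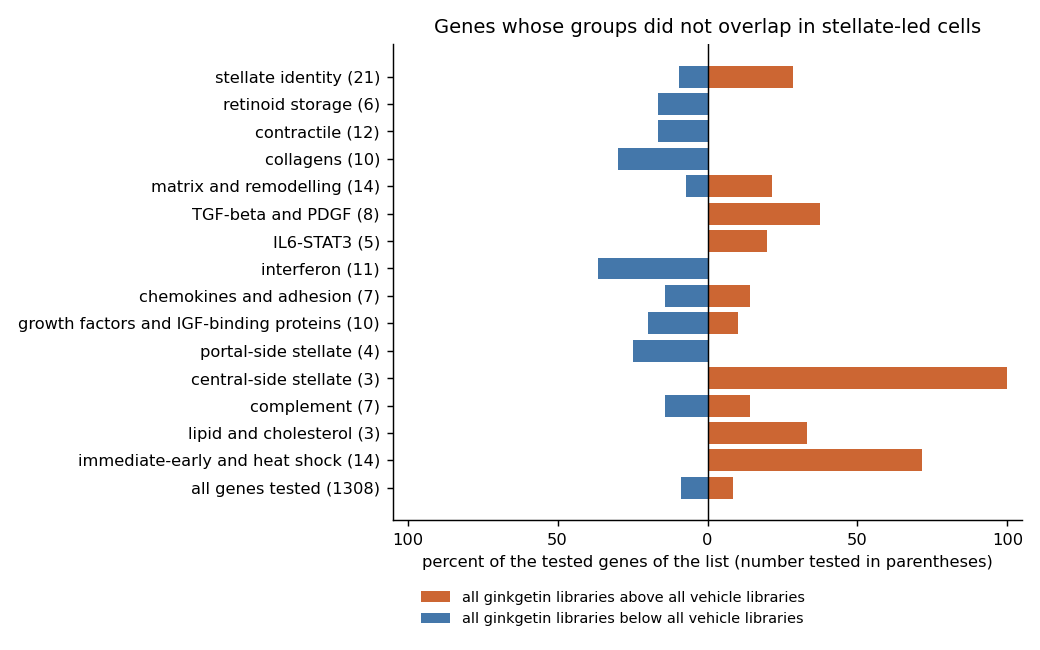
Share of the tested genes of each list (x axis, percent, numbers tested in parentheses) whose 3 ginkgetin libraries all lay above (orange, to the right) or all below (blue, to the left) the 3 vehicle libraries in the stellate-led cells. Over all 1308 genes the shares were 8.49% and 8.72%, and among the 15 lists drawn, which leave out the markers of other cells, 3 of 3 central-side genes and 10 of 14 immediate-early and heat shock genes were higher in every ginkgetin library.

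The median log2 difference without the block also changed sign between the stellate-led cells and the gate fit for the contractile list (-0.25 and 0.39), the matrix list (-0.08 and 0.84), the chemokine and adhesion list (-0.71 and 0.11) and the complement list (-0.05 and 0.44).

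Further genes that rose were Abcc9, Fgfr2 and Ntn1. Abcc9, a subunit of ATP-sensitive potassium channels typical of pericytes, stood at 421, 559 and 1054 CPM against 1374, 1260 and 2271 CPM (log2 difference 1.26 ± 0.27, adjusted p = 0.017). Fgfr2, a receptor for fibroblast growth factors, stood at 404, 324 and 253 CPM against 876, 689 and 1134 CPM (log2 difference 1.38 ± 0.32, adjusted p = 0.025). Ntn1, the guidance protein netrin 1, stood at 175, 180 and 190 CPM against 403, 445 and 688 CPM (log2 difference 1.41 ± 0.34, adjusted p = 0.03). None of the 3 overlapped between groups. Nfia, Epas1, Hes1, mt-Nd3 and 1700025G04Rik make up the rest of the 20 genes that rose.

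The genes that fell also held Angptl4, an inhibitor of lipoprotein lipase, with 351, 135 and 274 CPM against 23.7, 0 and 62.6 CPM (log2 difference -2.92 ± 0.55, adjusted p = 0.0065), and the glycolytic enzymes Tpi1 and Pkm (log2 differences -1.69 ± 0.38 and -1.40 ± 0.34). Clca3a1, a secreted protein of the chloride channel accessory family, fell from 386, 703 and 1517 CPM to 142, 193 and 332 CPM (log2 difference -1.96 ± 0.32, adjusted p = 0.0045). The others were Ly6a, Tmsb4x, Hist1h2bc, Ifi27l2a, Plac8, H2-Q7 and Eef1b2.

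In the gate fit the upward differences of lowest p, none of which passed without the block, were those of Ano1, Hhip, Arrb1, Hand2, Spry1 and Atrnl1. Ano1, a calcium-activated chloride channel, had 17.5, 18 and 42.1 CPM against 261, 104 and 203 CPM in the stellate-led cells (gate log2 difference 3.40 ± 0.59, adjusted p = 0.08). Hhip, an inhibitor of hedgehog signals, had 35.1, 18 and 42.1 CPM against 71.1, 171 and 391 CPM (gate log2 difference 3.69 ± 0.71, adjusted p = 0.12). Spry1, an inhibitor of receptor tyrosine kinase signals, had 105, 108 and 379 CPM against 497, 430 and 473 CPM, and Arrb1, an arrestin, had 87.7, 27 and 21.1 CPM against 213, 104 and 192 CPM (gate adjusted p = 0.12 for each). With the replicate block all 6 passed in the gate cells, with log2 differences of 3.17 for Ano1 (adjusted p = 0.0045), 3.94 for Hhip (adjusted p = 6.1e-04), 2.49 for Arrb1 (adjusted p = 0.014), 1.72 for Hand2 (adjusted p = 0.011), 1.80 for Spry1 (adjusted p = 0.012) and 3.5 for Atrnl1 (adjusted p = 0.0032). The fit with the block passed Myl9, Lamc1, Ltbp4, Tgfbr3 and Gdf10 as higher and Lpl and Hspa8 as lower as well, none of which passed in the stellate-led cells. It called 261 genes in all, on 1 residual degree of freedom, and 151 with the barcode set as a term.

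To see whether changes differed from those in another cell type of the same libraries, the effect of ginkgetin in HSCs was compared with that in 8331 endothelial cells by an interaction term. With the gate cells 9 of 10080 genes differed (0.0893%, vehicle replicate 1 not in the fit). With the stellate-led cells of all 6 libraries 53 of 9180 differed (0.577%). Rspo3 was among the 53, with 102, 124 and 46.4 CPM against 110, 48.4 and 54 CPM in endothelial cells (difference of the effects 2.31 ± 0.43 log2, adjusted p = 5.1e-05), and so was Hgf (2.14 ± 0.43, adjusted p = 2.7e-04). Ier2, Junb, Jun, Btg2 and Cyr61 differed by log2 2.16, 1.57, 1.5, 2.05 and 2.27 in the same direction, whereas the differences for Fos (adjusted p = 0.051) and Egr1 (adjusted p = 0.41) did not pass.

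Col1a1 differed by -2.90 ± 0.56 log2 (adjusted p = 1.3e-04), but endothelial cells had at most 6.25 CPM of it, and Ccdc80 differed by -2.43 ± 0.42 log2 (adjusted p = 7.2e-06). For other genes the endothelial levels were the ones that lay apart between groups. Kcnj8, the pore of the channel of which Abcc9 is a subunit, had 85.1, 46.9 and 121 CPM against 5.83, 7.33 and 5.91 CPM there and had 87.7, 297 and 653 CPM against 521, 474 and 442 CPM in HSCs (difference of the effects 4.24 ± 0.43 log2, adjusted p = 2.6e-19). Hspa1b had 735, 545 and 416 CPM against 146, 58.4 and 34.2 CPM in endothelial cells and 52.6, 279 and 21.1 CPM against 284, 222 and 121 CPM in HSCs (3.81 ± 0.49 log2, adjusted p = 2.0e-11).

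Portal fibroblast-like cells could be compared with the gate cells, those of other classes included, in 2 libraries of each group (replicates 2 and 3), and 41 of 3963 genes differed in the effect of ginkgetin (1.03%). Without the cells of other classes 61 differed, with 1 vehicle library in the fit. Tagln had 677 and 387 CPM against 31.1 and 3.4 CPM in the portal cells of replicates 2 and 3 (difference of the effects 5.48 ± 0.92 log2, adjusted p = 0.0045), and Hgf 140 and 275 CPM against 15.6 and 30.6 CPM (4.49 ± 0.72 log2, adjusted p = 0.0042). In these cells the makeup differed between groups, since 34 of the 64 vehicle cells and 7 of the 44 ginkgetin cells carried the stellate markers at the level of the gate. Its part in the difference was not tested.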

How the data were processed

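Non-parenchymal liver cells of 6 libraries (3 per group) were profiled on the 10X Chromium platform according to the study's methods, while the extract protocol in the labels names the SMARTER mRNA-Seq kit. The tables hold whole counts per cell barcode, and were taken as droplet UMI counts. The authors deposited raw UMI counts per gene and cell, 1 table per library. The submitters' processing notes name the builds GRCm38 and mm10, and the aligner and annotation are not given in the sources used here. All 6 tables list the same 19349 symbols. Of these symbols, 2253 had UMIs in replicate 3 libraries only and 946 in replicates 1 and 2 only. The 16150 others were used, and CPM is per 1000000 UMIs of these genes.

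Cells with under 5000 genes and under 5% mitochondrial UMIs were kept. The study states a range of 250 to 5000 UMIs, which was run as an alternative. No doublets were removed. The members and gene lists were chosen with earlier results of these data known. A gate cell was set aside as led by another class where the markers of 1 of 9 classes held at least as many UMIs as the 5 gate genes, a criterion added after seeing the data. Comparison cells lay outside the gate: endothelial cells had at least 4 UMIs of Kdr and Ptprb, portal fibroblast-like cells at least 2 UMIs of Dpt and Clec3b and at least 2 of Dcn, and T cells at least 3 UMIs of T cell markers.

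Counts were summed per library and tested with edgeR 4.0.16 (quasi-likelihood test, TMM, Benjamini-Hochberg adjustment) in R 4.3.3, with libraries of 10 or more cells in the gate fit and all 6 in the fit of stellate-led cells. Shares were compared by exact permutation tests with Python 3.11.15, NumPy 2.4.6, pandas 2.3.3 and SciPy 1.17.1, and plots were drawn with matplotlib 3.10.9. DESeq2 1.42.0 and limma 3.58.1 (voom) were alternatives, beside other filters, normalization, left-out libraries, the barcode set as a term and the replicate block. Scripts were tested on simulated data. Same-numbered vehicle and ginkgetin libraries correlated at 0.2, 0.31 and 0.55 in their deviations from the group means, and other pairs at -0.44 to 0.3. The numbers were taken to pair the libraries, though only replicate 3 stood apart from the other pairs. Replicate 3 also had its own barcode set, and the number and the set cannot be told apart there.

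Genes were named by rule. A fixed set of 20 stellate genes was joined by called genes, by genes of lowest p up to 6 per direction with a fold over 2 and 50 CPM or more in the higher group, and by the 2 members of lowest p in each list. Some items are not reported here.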

Additional observations from a re-analysis of the deposited data

Results flagged for a closer look

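In 10 named genes the effect of ginkgetin in gate cells differed from that in another cell type by the interaction test, with edgeR's quasi-likelihood test and Benjamini-Hochberg adjustment. Against endothelial cells, Rgs10, a regulator of G protein signalling, had a difference of the effects of -4.03 on the log2 scale. Its gate levels were 35.5, 226 and 141 CPM against 36.7, 34.3 and 29.4 CPM, and 11 stellate-led cells had a UMI of it.

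Against portal fibroblast-like cells of replicates 2 and 3, the log2 differences were 5.48 for Tagln, 4.49 for Hgf, 4.07 for Des, 2.11 for Ecm1, 2.55 for Cxcl12, 2.73 for Spry1, 2.87 for Rspo3 and 4.35 for Colec10, with the effect higher in HSCs. Fabp5, a fatty acid-binding protein, differed by -5.47. Des had 157 and 221 CPM against 31.1 and 13.6 CPM in the portal cells, and Ecm1 had 1444 and 1013 CPM against 483 and 899 CPM. These values include gate cells led by other classes. Without them 61 genes differed, against 41, but with 1 vehicle library in the fit, because vehicle replicate 3 held 8 stellate-led cells, under the minimum of 10.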

How the results depend on the processing

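The gate fits without immune-UMI cells, with replicates 1 and 2 only, without vehicle replicate 2 or without vehicle replicate 3, the same fits of both interactions where they were made, and the stellate-led fit of libraries with 10 or more cells, held 1 vehicle library, which is assumed to vary like the others, and their counts and reversals rest on it. The number of genes called in the gate cells depended on the settings. Against 1 gene, it was 45 with DESeq2, 0 with limma-voom, 181 with no filter on low counts, 0 with no filter on cells, 34 with 6 or more marker UMIs, 31 without cells with 2 or more immune UMIs, 132 with replicates 1 and 2 only, 0 with all 6 libraries and 0 to 40 when 1 library was left out (40 without vehicle replicate 2, 16 without vehicle replicate 3, 15 without ginkgetin replicate 3). With the replicate block, which takes same-numbered libraries as pairs, it was 261, and with the barcode set as a term 151. With the cells of other classes left out, chosen after seeing the data, it was 0, 0 with RLE normalization, 25 with libraries of 10 or more cells, 9 with DESeq2, 0 with limma-voom, 0 with replicates 1 and 2 only, 33 with the barcode set as a term, 45 with the replicate block, and 0 to 8 with 1 library left out (8 without vehicle replicate 2). Without the upper limits it was 6, and 115 with the block. The interaction with endothelial cells gave 9 genes, 97 with no filter on low counts, 14 without immune-UMI cells, 73 with replicates 1 and 2 only, 0 to 280 with 1 library left out (0 without ginkgetin replicate 1, 280 without ginkgetin replicate 3), 53 without cells of other classes and then 34 to 44 with 1 library left out (39 without vehicle replicate 2 or vehicle replicate 3, 35 without ginkgetin replicate 2). The interaction with portal fibroblast-like cells gave 41, 61 without cells of other classes (1 vehicle library), and 22 to 138 with 1 library left out (123 without ginkgetin replicate 2 and 22 without ginkgetin replicate 3, each with 1 ginkgetin library). The difference in the thinned Col1a1 share was -8.91 points, and 0.859 within replicate 3. The range of 250 to 5000 UMIs left 0 vehicle and 2 ginkgetin libraries with 10 cells, and no fit was made. The cause of these changes was not tested.

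For 66 named genes, 819 of 1031 alternative values kept direction and side of the threshold, 162 passed it newly, 3, all of Trem2, lost it and 47, in 16 genes, changed direction. In log2, Acta2 was 0.69 in the gate fit and became -0.24 without vehicle replicate 2 and -0.24 without ginkgetin replicate 3, and -1.01 and -0.73 in stellate-led cells without and with the block. Col1a1 became 0.72, Col1a2 0.38, Col3a1 0.56, Sparc 0.75, Il6st -0.11 and Cd79b -0.07 without vehicle replicate 2. Tagln became 0.21 without immune-UMI cells, 0.42 with replicates 1 and 2 only and 0.36 without vehicle replicate 3. Col1a2 became 0.16 with the block and 0.12 without ginkgetin replicate 1, Sparc 0.04 with the block, and Col3a1 0.06 with no filter on cells and 0.07 without ginkgetin replicate 2. Without immune-UMI cells Lpl became 0.97, Cxcl16 0.25, Clec4g -0.03 and Igfbp7 -0.74. Without vehicle replicate 3 Igfbp7 became -0.65 and Mki67 0.26, and without ginkgetin replicate 2 Igfbp7 became -0.12. In stellate-led cells without and with the block Des became -0.10 and -0.24, Il6st -0.66 and -0.57, Igfbp7 -0.62 and -0.64, Bgn -0.16 and -0.19 and Lpl 0.26 and 0.23. With 6 or more marker UMIs Il6st became -0.02, Igfbp7 -0.11 and Mki67 0.12. Igfbp7 also became -0.01 with RLE and with DESeq2, -0.11 with no filter on low counts, -0.05 with the block, -0.08 with the barcode set, -0.34 with replicates 1 and 2 only and -0.14 without ginkgetin replicate 1. At the other end of the range with 1 library left out, Acta2 stood at 3.42, Col1a1 at -1.75, Col1a2 at -0.48, Col3a1 at -0.67, Sparc at -0.86 and Cd79b at 4.13 without vehicle replicate 3, and Tagln at -0.60, Igfbp7 at 1.02 and Mki67 at -1.93 without vehicle replicate 2. Igfbp3 became 0.04 with no filter on cells and Clec4g -0.08 with limma-voom.

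Depth limits these results, since vehicle replicates 1 and 3 held 5 and 8 stellate-led cells with 57890 and 48183 UMIs.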
